A study of Bos taurus with 14 samples.

Results

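The miRNAs of the bovine HOX clusters were followed in blood. The 4 members are bta-miR-10a, bta-miR-10b, bta-miR-196a and bta-miR-196b, taken by their names from every library file, out of 932 names in all (723 of them bovine, the rest human homologues). All 4 had reads in both plasma and leucocytes. The libraries came from 4 ruminally cannulated, non-lactating Holstein cows, which were first fed a forage diet (FD, 0% concentrate) and then a high-grain diet (HG, 65% concentrate) that served as a model of subacute ruminal acidosis (SARA). Cell-free plasma of cows 1 to 4 gave 8 small RNA libraries, and leucocytes (the buffy coat, a mixture of white blood cells) of cows 1, 3 and 4 gave 6, each cow being sampled on FD and in the first week of HG. Every cow received FD before HG, so diet and sampling time cannot be told apart. Plasma and leucocyte RNA were extracted with different kits, so sample type and extraction cannot be told apart either. The 4 groups were plasma FD (n = 4), plasma HG (n = 4), leucocytes FD (n = 3) and leucocytes HG (n = 3).

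HOX genes encode transcription factors that give body segments their positional identity and also act in blood progenitors. They lie in tight clusters that also hold miRNA genes. The miR-10 genes sit beside the HOX4 group and the miR-196 genes beside the HOX9 group. The miR-10a and miR-10b miRNAs differ by a single base in the middle and share their seed, and miR-196a and miR-196b likewise form a pair that differs by a single base. miR-10a is known from endothelium and from regulation of NF-kappaB signalling, miR-10b from vascular and connective tissue and from invasive breast tumours. miR-196 represses HOX transcripts such as HOXB8, and miR-196b is known from blood progenitors and from leukaemias with high HOXA expression.

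In the library files, which use the UMD3.1 genome, bta-miR-10a mapped to the plus strand of chromosome 19 (38549275 to 38549297) and bta-miR-10b to the minus strand of chromosome 2 (20797625 to 20797647). bta-miR-196b mapped to the plus strand of chromosome 4 (69327775 to 69327797). bta-miR-196a has 2 hairpins, bta-mir-196a-1 on the plus strand of chromosome 19 (38497007 to 38497028) and bta-mir-196a-2 on the minus strand of chromosome 5 (26199816 to 26199837). By gene order in the RefSeq annotation (assembly ARS-UCD2.0), MIR10A lies within the span of HOXB3, MIR10B within HOXD4 and MIR196A-1 within HOXB9. MIR196A-2 lies between HOXC9 and HOXC10, and MIR196B between HOXA10 and HOXA9, within the span of the uncharacterized gene LOC132345112. bta-miR-615, a further miRNA of the HOXC cluster, has no row in any library.

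Between 376589 and 4464702 reads per plasma library and between 21764579 and 66070770 per leucocyte library were assigned to miRNAs. Where no read was counted, the level could still have been that of 3 reads, a limit of 0.672 to 7.97 RPM (reads per 1e6 reads assigned to miRNAs) in plasma and 0.0454 to 0.138 in leucocytes. The plasma library of cow 1 on FD was the shallowest, and the leucocyte library of cow 4 on FD was the shallowest of its kind. The 6 leucocyte miRNAs of the marker list (such as miR-142 and miR-223) summed to 22850 to 34074 CPM (counts per 1e6 estimated counts) in leucocytes, where the label places them, and to 16409 to 34765 in plasma. All 6 had reads in both sample types. The 4 erythrocyte miRNAs (miR-451, miR-486, miR-144 and miR-363) summed to 183139 to 350353 CPM in leucocyte libraries and to 40372 to 119197 CPM in plasma. The buffy coat RNA and the plasma RNA thus both held erythrocyte miRNAs.

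Levels are given as CPM or as RPM, and each value names its scale. CPM rests on the estimated counts, where reads shared by several names were split between those names. RPM rests on the read counts, where every read of a name counts in full. For bta-miR-10a and bta-miR-10b the division hardly mattered, since at least 99.7% of their reads were kept in each library. For bta-miR-196b 50% were kept in each library, because hsa-miR-196b-5p holds the same reads. For bta-miR-196a 25% to 50% were kept, because its reads are divided with hsa-miR-196a-5p and between the hairpins. Of the 8 human names of these hairpins only these 2 had rows.

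bta-miR-10a was a mid-abundance plasma miRNA that was scarcer in leucocytes. In plasma on FD it stood at 955, 4191, 2679 and 4001 CPM in cows 1 to 4, a mean of 2956 ± 1494 (SD, n = 4). On HG the plasma values were 3636, 2400, 2157 and 3907 CPM, with a mean of 3025 ± 875 (SD, n = 4). The diets overlapped, and the shallowest library, cow 1 on FD, was the lowest by far. Leucocytes of cows 1, 3 and 4 held 184, 265 and 453 CPM on FD (mean 301 ± 138, SD, n = 3). On HG they held 157, 205 and 226 CPM (mean 196 ± 35.1, SD, n = 3). The order of the group means by CPM was thus plasma HG, plasma FD, leucocytes FD and leucocytes HG, where only the step from plasma to leucocytes separated all libraries. On the TMM-scaled CPM the plasma means had the other order, 3791 on FD and 2766 on HG. Among the bovine names of a library bta-miR-10a ranked between 39 and 84 in plasma and between 78 and 95 in leucocytes. These names numbered 289 to 384 in plasma and 553 to 626 in leucocytes, so ranks are not on one scale.

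bta-miR-10b was a plasma miRNA above all. In plasma on FD it reached 1328, 6094, 4096 and 5933 CPM in cows 1 to 4, a mean of 4363 ± 2217 (SD, n = 4). On HG it reached 3159, 3593, 3533 and 5858 CPM (mean 4036 ± 1230, SD, n = 4). The diets overlapped here too, with cow 1 on FD again the lowest. In leucocytes of cows 1, 3 and 4 it fell to 14.2, 21.7 and 68.2 CPM on FD (mean 34.7 ± 29.2, SD, n = 3). On HG the leucocyte values were 17.4, 23.3 and 36.2 CPM (mean 25.7 ± 9.62, SD, n = 3). No leucocyte library came near the lowest plasma library, and cow 4 was the highest of the leucocyte libraries on either diet. The rank of bta-miR-10b among bovine names, whose numbers are given above, ran from 33 to 72 in plasma and from 136 to 180 in leucocytes.

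**Figure D1:**
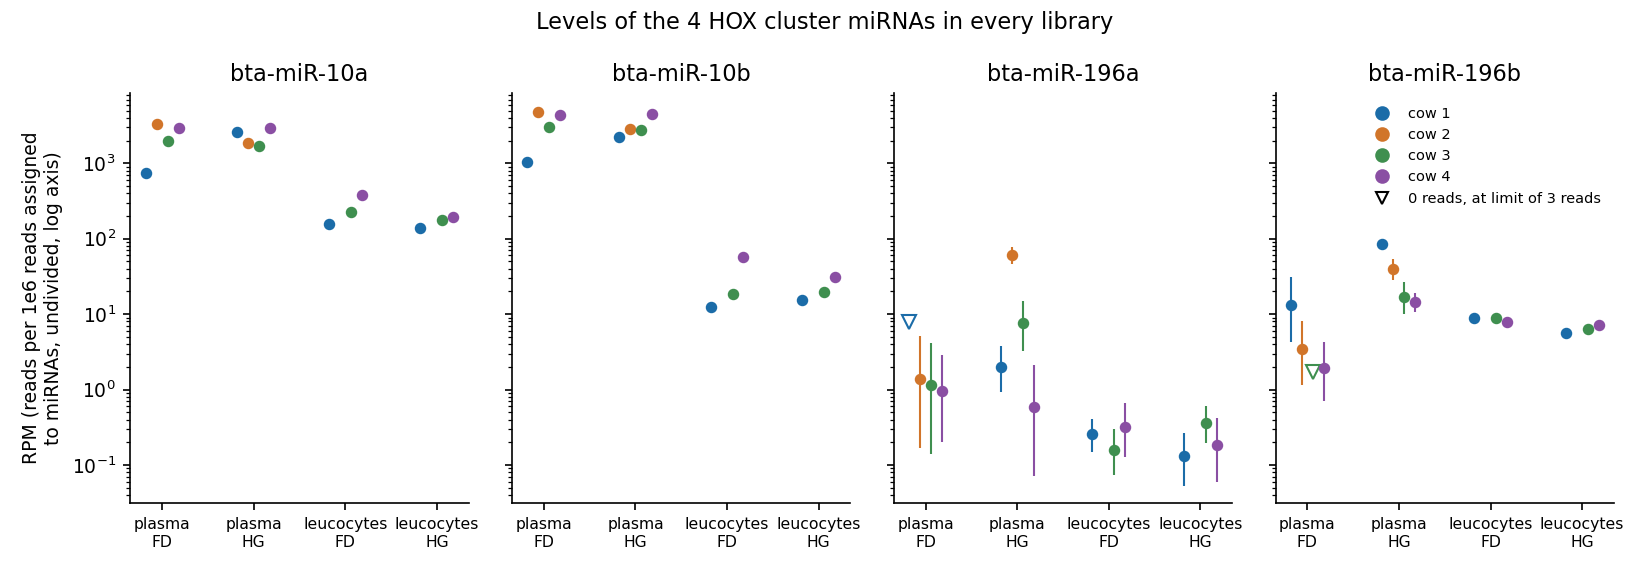
RPM (undivided read counts, log axis) of each HOX cluster miRNA, with 1 point per library coloured by cow and 95% exact binomial intervals. Open triangles mark libraries with 0 reads, drawn at the limit of 3 reads. bta-miR-10a and bta-miR-10b are higher in every plasma library than in any leucocyte library, and bta-miR-196b is higher in plasma on HG than on FD in each cow.

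The comparison of leucocytes with plasma asks where in blood the members are found. All 14 libraries were fitted together in edgeR (quasi-likelihood test, TMM scaling, cow as a block), and p-values were adjusted by Benjamini-Hochberg over 800 names. The call rate was high, with 264 names (33.0%) past an adjusted p of 0.05 on FD and 277 (34.6%) on HG. bta-miR-10b was lower in leucocytes by a log2 fold change of -6.48 ± 0.622 (SE, adjusted p = 7.9e-05) on FD and -6.04 ± 0.601 (SE, adjusted p = 5.4e-05) on HG. The mean CPM was 126-fold higher in plasma on FD and 157-fold higher on HG. For bta-miR-10a the log2 fold changes were -2.69 ± 0.611 (SE, adjusted p = 0.00816) on FD and -2.74 ± 0.596 (SE, adjusted p = 0.00669) on HG. Mean CPM ratios of plasma to leucocytes were 9.84 and 15.4. For both miRNAs the leucocyte and plasma libraries did not overlap on either diet. Over all names tested, 18.4% were separated in that direction on FD and 29.0% on HG.

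These values are relative to a moving centre. The median log2 fold change over all names was 1.63 on FD and 0.84 on HG with TMM scaling, and 1.03 and -0.28 with library size alone. The split of calls moved with it, from 147 higher and 117 lower in leucocytes to 94 higher and 150 lower on FD, and from 150 and 127 to 63 and 196 on HG. With DESeq2 size factors 182 were higher and 85 lower on FD. bta-miR-10a and bta-miR-10b remained lower in leucocytes under each scaling, with bta-miR-10a between -2.22 and -3.92 and bta-miR-10b between -5.77 and -7.25 over the scalings and diets. The call of bta-miR-10a was lost on FD without cow 3 (adjusted p = 0.0568) or cow 4 (adjusted p = 0.0762) and on HG without cow 4 (adjusted p = 0.0568).

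The ratio of bta-miR-10a to bta-miR-10b within a library needs no scaling between libraries. In plasma the log2 ratio on FD was -0.47, -0.54, -0.61 and -0.57 in cows 1 to 4. On HG it was 0.20, -0.58, -0.71 and -0.58. Plasma thus held more bta-miR-10b than bta-miR-10a in 7 of 8 libraries, at 0.611 to 0.720 of bta-miR-10a per bta-miR-10b, with cow 1 on HG as the exception at 1.15. In leucocytes the log2 ratio was 3.69, 3.61 and 2.73 on FD and 3.17, 3.14 and 2.64 on HG in cows 1, 3 and 4. There bta-miR-10a exceeded bta-miR-10b by 6.23 to 12.9 times, the opposite order to plasma. As the miRNAs differ by a single base, a read error at that base would move a read from one name to the other, and the extent of this was not tested.

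**Figure D2:**
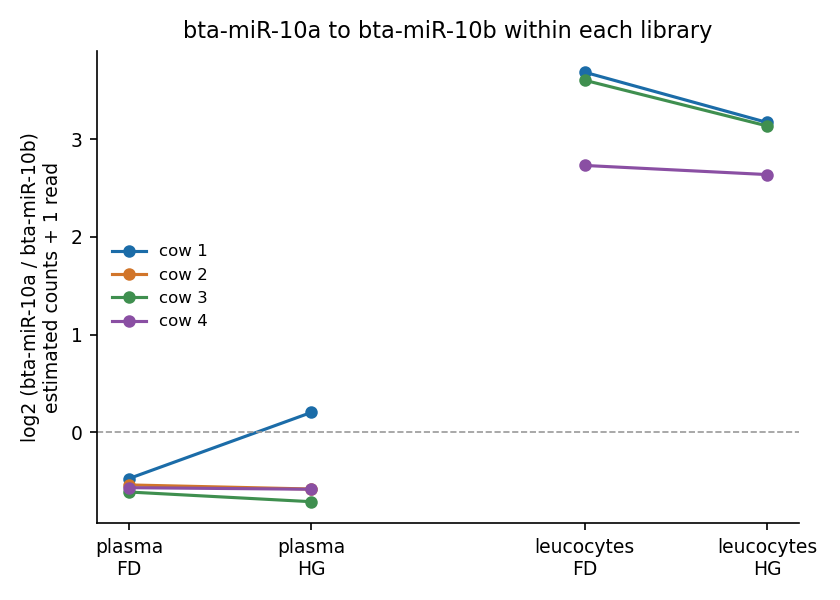
Log2 ratio of bta-miR-10a to bta-miR-10b (estimated counts plus 1 read) in each library, with a line joining the diets of a cow. The dashed line marks equal counts. Plasma libraries lie between -0.71 and 0.20 and leucocyte libraries between 2.64 and 3.69.

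HG against FD in leucocytes asks whether the diet was accompanied by a change in blood cells. edgeR called 15 of 782 names (1.92%), and none of the 4 members was among them. bta-miR-10a was lower on HG in 3 of 3 cows, with differences of -13.4% in cow 1, -23.8% in cow 3 and -48.6% in cow 4 on the TMM-scaled CPM. The log2 fold change was -0.52 ± 0.162 (SE, n = 3 cows, adjusted p = 0.145 in edgeR). In DESeq2, which called 32 of 782 names (4.09%), the log2 fold change was again -0.52 and the adjusted p was 0.0213. The study's own DESeq2 analysis, of the same libraries, listed bta-miR-10a as lower on HG in leucocytes, at an adjusted p under 0.05. Its log2 fold change there, -0.52, is short of the absolute value of 1 that the study's methods also set. The adjusted p was 0.0414 in edgeR when names were required to have at least 10 reads in every library. The FD and HG libraries overlapped across cows. Without cow 4 the log2 fold change was -0.30 (adjusted p = 0.174). In such mixed cells, fewer cells of a type and less RNA per cell cannot be told apart. The erythrocyte list summed to 183139 to 248959 CPM on FD and 217183 to 350353 CPM on HG in these libraries. Of its 4 miRNAs bta-miR-144 was called lower on HG (log2 fold change -0.86, adjusted p = 0.0313 in edgeR), and of the 6 leucocyte list miRNAs bta-miR-142-3p was (log2 fold change -0.61, adjusted p = 0.0313 in edgeR). Other names of both lists were higher on HG without a call. These were bta-miR-486 (log2 fold change 0.42) and bta-miR-451 (0.32) of the erythrocyte list, and bta-miR-223 (0.16) and bta-miR-342 (0.15) of the leucocyte list. The remaining names were lower on HG without a call. They were bta-miR-363 (-0.09) of the erythrocyte list, and bta-miR-142-5p (-0.46), bta-miR-155 (-0.24) and bta-miR-150 (-0.03) of the leucocyte list. The part of either list in the difference was not tested.

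bta-miR-10b showed no common direction in leucocytes. It was 1.24-fold and 1.05-fold higher on HG in cows 1 and 3 and 0.549-fold in cow 4 on the TMM-scaled CPM. The log2 fold change was -0.16 ± 0.228 (SE, n = 3 cows, adjusted p = 0.825 in edgeR), and without cow 4 it was 0.19. The log2 ratio of bta-miR-10a to bta-miR-10b was lower on HG in 3 of 3 cows, by a mean of -0.36 ± 0.231 (SD, n = 3; exact two-sided sign-flip permutation test, p = 0.25, the smallest p that 3 cows allow, adjusted p = 0.5 over 4 ratio tests).

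Markers that were more abundant in plasma also varied between the leucocyte libraries. bta-miR-205, an epithelial miRNA, stood at 50.4, 89.1 and 407 CPM on FD and 64.6, 76.2 and 201 CPM on HG in cows 1, 3 and 4. bta-miR-126-3p, the endothelial miRNA, stood at 44.9, 65.1 and 208 CPM on FD and 45.8, 58.3 and 104 CPM on HG. bta-miR-122, the hepatocyte miRNA, stood at 19.4, 30.8 and 89.9 CPM on FD and 26.8, 29.6 and 48.3 CPM on HG. All 3 were highest in cow 4 on FD, next highest in cow 4 on HG and lowest in cow 1 on FD, and so was bta-miR-10b. bta-miR-10a was also highest in cow 4 on FD, but it was lowest in cow 1 on HG. Not every list miRNA had its lowest value on FD. bta-miR-126-5p, the other endothelial miRNA, was lowest in cow 1 on HG (7.86 CPM, against 9.44 on FD), as bta-miR-10a was. The lowest value of bta-miR-1 of the muscle list was also on HG (9.02 CPM, against 9.47 on FD). The other epithelial miRNAs with rows and bta-miR-133a had their lowest values on FD. As summed CPM over whole lists, the 5 epithelial miRNAs with rows ranged from 116 to 847 in leucocytes against 3192 to 22163 in plasma, the 2 endothelial ones from 53.7 to 245 against 3173 to 7157, and the 3 muscle ones from 10.04 to 51.2 against 283 to 1747. Each of these list miRNAs had reads in both sample types, and bta-miR-203 of the epithelial list had no row. Their part in the levels of bta-miR-10a and bta-miR-10b was not tested.

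**Figure D3:**
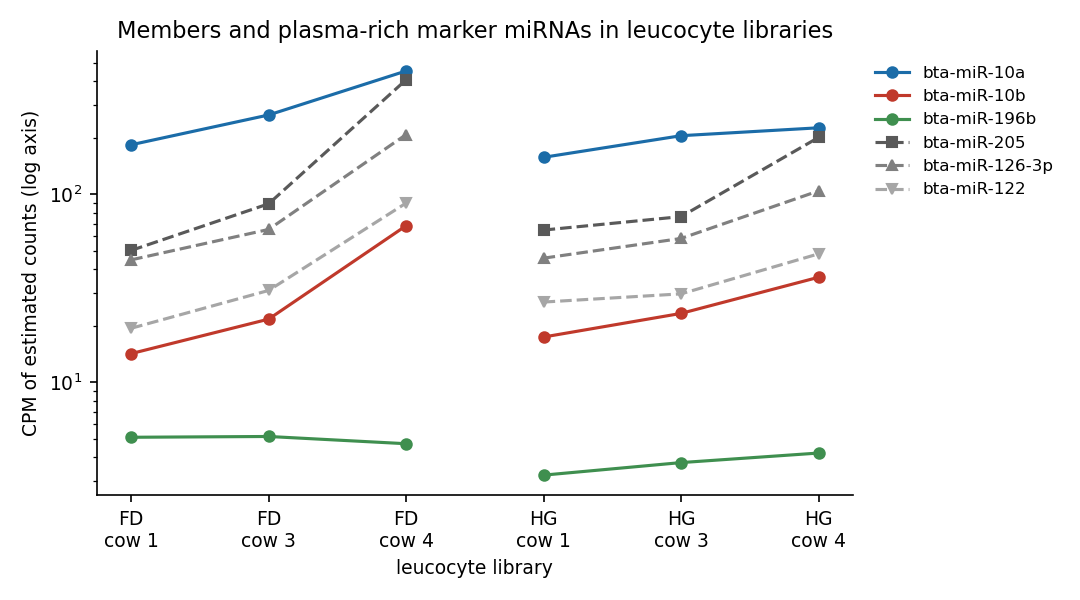
CPM of estimated counts (log axis) in the 6 leucocyte libraries for bta-miR-10a, bta-miR-10b and bta-miR-196b and for marker miRNAs of epithelium (bta-miR-205), endothelium (bta-miR-126-3p) and liver (bta-miR-122). Lines only guide the eye within a diet. bta-miR-10b and the markers are highest in cow 4, whereas bta-miR-196b lies between 3.21 and 5.16 CPM throughout.

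In plasma the miR-10 pair went the other way in cow 1 than in cows 2 to 4 between the diets on the TMM-scaled CPM. Without TMM scaling cow 4 hardly differed, with HG at 0.976-fold of FD for bta-miR-10a and 0.987-fold for bta-miR-10b in CPM. In RPM cow 4 was slightly higher on HG, at 2971 against 2956 for bta-miR-10a and 4451 against 4382 for bta-miR-10b. edgeR called 0 of 538 names (0.0%), with 55 at an unadjusted p under 0.05, while DESeq2 called 12. bta-miR-10a was lower on HG in 3 of 4 cows and higher in cow 1, 5.42-fold on the TMM-scaled CPM, so that the log2 fold change was -0.35 ± 0.737 (SE, n = 4 cows, adjusted p = 0.956 in edgeR). bta-miR-10b was likewise lower in 3 of 4 cows and 3.38-fold higher in cow 1, with a log2 fold change of -0.41 ± 0.617 (SE, n = 4 cows, adjusted p = 0.9502 in edgeR). Without cow 1 the log2 fold changes were -1.08 and -1.03, and with library size alone they were 0.15 and 0.05, so the direction depends on the scaling. The median over all names was 0.25 with TMM scaling and 0.67 with library size alone. The log2 ratio of bta-miR-10a to bta-miR-10b differed by 0.13 ± 0.366 (SD, n = 4; exact two-sided sign-flip permutation test, p = 1, where 0.13 is the smallest p that 4 cows allow).

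bta-miR-196b was scarce in both sample types, with different diet directions in them. In plasma on FD cows 1 to 4 gave 5, 5, 0 and 6 reads, and on HG they gave 375, 39, 18 and 49. In RPM these were 13.3, 3.50, 0 and 1.94 on FD (mean 4.68 ± 5.91, SD, n = 4) and 84.0, 40.0, 16.9 and 14.4 on HG (mean 38.8 ± 32.2, SD, n = 4). The library with 0 reads allows up to 1.71 RPM. The groups did not overlap on this scale, as for 4.83% of names higher on HG, but the exact binomial 95% intervals of cow 1 on FD (4.31 to 31.0) and of cow 4 on HG (10.7 to 19.1) did. On the TMM-scaled CPM, cow 1 on FD (7.75) stood just above cow 3 on HG (7.58). The log2 fold change was 3.05 ± 1.16 (SE, higher in 4 of 4 cows, adjusted p = 0.452 in edgeR), which did not pass the threshold. With the library of 0 reads set at its limit of 3 reads, the mean on HG was 7.60-fold higher than on FD, in RPM. This is not a lower bound, since the FD libraries of cows 1, 2 and 4 entered at their counted reads. Their exact binomial 95% intervals reach 31.0, 8.17 and 4.23 RPM. Without cow 3, which holds the library of 0 reads, the log2 fold change was 2.63. Of all reads analysed, 39.3% to 58.1% on FD and 59.3% to 72.05% on HG were assigned to miRNAs in plasma, and the part of this in the difference was not tested.

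In leucocytes bta-miR-196b was steady between cows. Cows 1, 3 and 4 gave 580, 497 and 173 reads on FD and 300, 251 and 198 on HG. In RPM these were 8.78, 8.81 and 7.95 on FD (mean 8.51 ± 0.489, SD, n = 3) and 5.596, 6.42 and 7.19 on HG (mean 6.40 ± 0.796, SD, n = 3). HG was lower in 3 of 3 cows and the groups did not overlap, as for 9.21% of names lower on HG. The log2 fold change was -0.43 ± 0.225 (SE, n = 3 cows, adjusted p = 0.417 in edgeR) and did not pass the threshold. The adjusted p was nearest to it without cow 4 (0.0526, log2 fold change -0.57). On FD cow 4 held the lowest leucocyte level of bta-miR-196b, where it held the highest of bta-miR-10b. Its exact binomial 95% interval for bta-miR-196b on FD (6.81 to 9.23 RPM) overlapped those of cow 1 (8.08 to 9.52) and cow 3 (8.05 to 9.62). On HG cow 4 held the highest leucocyte level of both miRNAs.

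bta-miR-196a was at the edge of detection. In plasma cows 1 to 4 gave 0, 2, 2 and 3 reads on FD and 9, 59, 8 and 2 on HG. In RPM the HG values were 2.02, 60.5, 7.53 and 0.588, so that cow 2 made up most of the group. The log2 fold change was 1.76 ± 1.34 (SE, adjusted p = 0.871 in edgeR), and without cow 2 the name had too few reads to be tested. Leucocytes of cows 1, 3 and 4 gave 17, 9 and 7 reads on FD and 7, 14 and 5 on HG, which is 0.131 to 0.358 RPM. The diets overlapped there (log2 fold change -0.23 ± 1.49, SE, adjusted p = 0.972 in edgeR). A change of this miRNA in leucocytes was not detectable at this depth.

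The miR-196 pair was also compared between sample types on each diet. On FD bta-miR-196b had a log2 fold change of leucocytes against plasma of 2.14 ± 1.08 (SE, adjusted p = 0.144 in edgeR, 0.0282 in DESeq2). It was 3.77 without cow 1 (adjusted p = 0.0542 in edgeR) and 1.12 without cow 3. On HG it was -1.01 ± 1.004 (SE, adjusted p = 0.462 in edgeR), and 0.41 without cow 1. bta-miR-196a was lower in leucocytes on HG with a log2 fold change of -3.02 ± 0.900 (SE, adjusted p = 0.0224 in edgeR). That call was lost in DESeq2 (adjusted p = 0.0589) and without cow 1, 2 or 3 (adjusted p = 0.168, 0.0658 and 0.127). On FD its log2 fold change was -0.87 ± 1.11 (SE, adjusted p = 0.727 in edgeR). Within leucocytes bta-miR-196b exceeded bta-miR-196a in every library, with a log2 ratio of bta-miR-196a to bta-miR-196b of -6.26 to -4.45 on estimated counts. As this pair too differs by a single base, a read error there could move reads between the names, and its extent was not tested. In plasma few reads stood behind the ratio, so it depended on the pseudocount and on how reads were divided. Cow 3 on FD had 2 reads of bta-miR-196a and 0 of bta-miR-196b. Cow 2 on HG had 59 and 39 undivided reads, although the estimated counts gave a log2 ratio of -0.38. Over the plasma libraries the log2 ratio ran from -5.56 to 0.58 (cow 3 on FD). Its HG minus FD difference was -1.87 ± 1.94 in plasma (SD, n = 4; exact two-sided sign-flip permutation test, p = 0.25, adjusted p = 0.5) and 0.20 ± 1.22 in leucocytes (SD, n = 3; same exact test, p = 1).

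Whether the diet difference itself differed between leucocytes and plasma was tested in the joint fit. edgeR called 0 of 800 names (0.0%), with 59 at an unadjusted p under 0.05, and DESeq2 called 30, none of them a member. For bta-miR-196b the diet effect in leucocytes minus that in plasma was -3.15 ± 1.36 (log2, SE, adjusted p = 0.636 in edgeR). It was -0.05 ± 0.769 for bta-miR-10a, 0.45 ± 0.657 for bta-miR-10b and -2.15 ± 1.34 for bta-miR-196a (log2, SE). The opposite directions of bta-miR-196b in the sample types are therefore not shown to differ after adjustment.

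**Figure D4:**
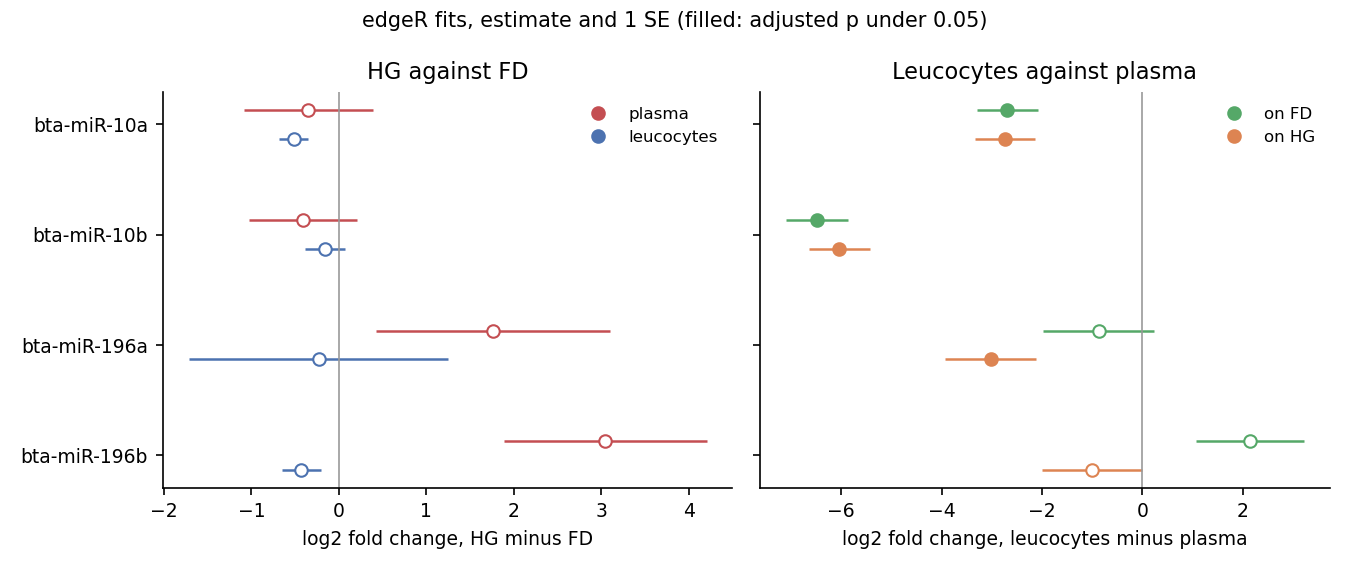
Log2 fold changes with 1 SE of each HOX cluster miRNA from edgeR, HG against FD on the left and leucocytes against plasma on the right. Filled points passed an adjusted p of 0.05. No diet estimate is filled, and bta-miR-10a and bta-miR-10b are filled on both diets for leucocytes against plasma.

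The wider mir-10 superfamily shares sequence with miR-10 but lies outside the HOX clusters. It includes miR-99, miR-100 and the miR-125 miRNAs, several of them encoded beside let-7 genes. Of its 5 further members, 4 were lower in leucocytes than in plasma on FD and on HG. Over all names 14.6% were called lower in leucocytes on FD and 15.9% on HG. The median log2 fold change of the list was -4.43 on FD and -3.75 on HG, where all names had 1.63 and 0.84. bta-miR-125a, known from blood stem cells and myeloid cells, had -5.06 ± 0.491 (log2, SE, adjusted p = 7.9e-05) on FD, falling from a mean of 3125 CPM in plasma to 73.6 in leucocytes. bta-miR-100 and bta-miR-99b had -4.46 and -4.43 on FD. bta-miR-125b had -2.68 ± 0.423 (log2, SE, adjusted p = 0.000854). bta-miR-99a-5p was the member that did not pass, with 0.08 ± 0.450 on FD (log2, SE, adjusted p = 0.895) and 0.73 ± 0.418 on HG (adjusted p = 0.190). It stood at 800 to 1549 CPM in leucocytes and 1110 to 3747 in plasma. None of the 5 passed between diets, where 1.92% of all names did in leucocytes and 0.0% in plasma, with log2 fold changes of -0.36 to 0.23 in leucocytes and -0.55 to -0.23 in plasma.

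The names whose levels ran most like the miR-10 pair were taken by Pearson's r of log2 CPM over the libraries of a sample type, which share depth and cows, so that r is only a description. Over the 6 leucocyte libraries and 111 names, bta-miR-10a ran most like bta-miR-155, a miRNA of activated lymphocytes and macrophages (r = 0.918), bta-miR-30a-5p (r = 0.908) and bta-miR-22-3p (r = 0.856). bta-miR-10b ran most like bta-miR-205 (r = 0.981), bta-miR-30a-5p (r = 0.958) and bta-miR-30d (r = 0.914), while its r with bta-miR-10a was 0.753. Over the 8 plasma libraries and 161 names, bta-miR-10a and bta-miR-10b ran together (r = 0.961). The names most like bta-miR-10a there were bta-miR-204, bta-miR-320a and bta-miR-296-3p (r = 0.973, 0.969 and 0.956). Those most like bta-miR-10b were bta-miR-1249, bta-miR-27a-3p and bta-miR-29c (r = 0.976, 0.965 and 0.958). The median r over all names was 0.499 and 0.427 in plasma and -0.19 and -0.28 in leucocytes, for bta-miR-10a and bta-miR-10b.

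The number of distinct read sequences behind a name shows how many different reads its count rests on. In leucocytes bta-miR-196b rested on 30, 25 and 16 distinct sequences on FD and 14, 16 and 17 on HG. In plasma on HG it rested on 6, 1, 5 and 5 in cows 1 to 4. The 375 reads of cow 1 thus came from 6 sequences, where 34 bovine names with a similar number of reads (within 1.5 times) in that library had a median of 8. The 39 reads of cow 2 came from a single sequence, against a median of 4 over 33 similar names. The 59 reads of bta-miR-196a in the same library came from 2 sequences, against a median of 5 over 39 names. In cows 3 and 4 on HG the 5 sequences of bta-miR-196b were above the medians of 3 over similar names. bta-miR-10a and bta-miR-10b rested on 17 to 62 distinct sequences in plasma and on 24 to 97 in leucocytes. The deposited counts do not mark single molecules, so repeated reads of a sequence cannot be counted as independent molecules. The intervals above cover counting error only.

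**Figure D5:**
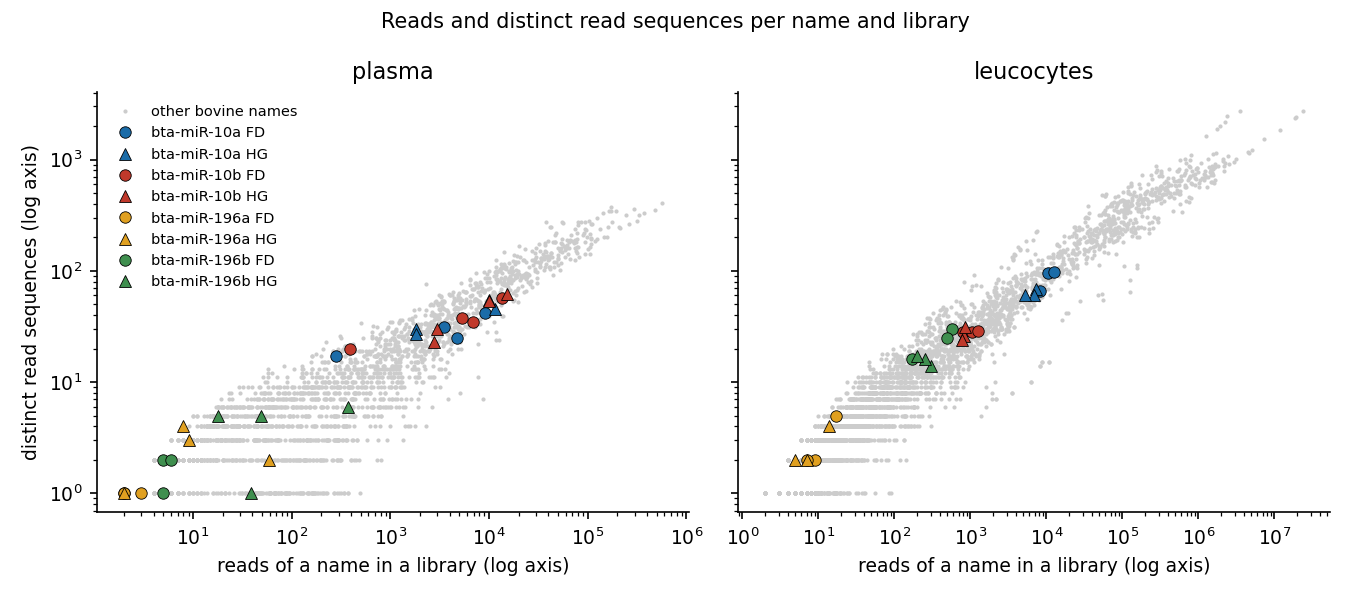
Reads (log axis) and distinct read sequences (log axis) of each bovine name in each library, plasma on the left and leucocytes on the right. Grey dots are other names, and coloured circles (FD) and triangles (HG) are the HOX cluster miRNAs. The plasma HG triangles of bta-miR-196b at 39 reads and of bta-miR-196a at 59 reads rest on 1 and 2 sequences.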

How the data were processed

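Small RNA was sequenced from plasma and leucocytes of cows on FD and HG. Per the study's methods, the authors demultiplexed reads (bcl2fastq 2.20), trimmed adapters with Skewer and assigned reads with sRNAbench to bovine and human miRBase names on the UMD3.1 genome, allowing mismatches. The authors deposited for each library a read count per name, in which a read counts in full at every name it matches, and an estimated count divided among those names. The files also give RPM values, scaled by the authors, from which only the number of reads assigned in each library was taken. The authors also deposited tables of counts divided by size factors, whose 14 per-sample columns were not used here.

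The deposited estimated counts were rounded and tested in edgeR 4.0.16 (R 4.3.3, robust quasi-likelihood, TMM scaling, model of cow and diet, over names whose reads summed to 10 or more), separately for plasma and leucocytes, and jointly for leucocytes against plasma. The SE was derived from the log2 fold change and its F statistic. DESeq2 1.42.0, the study's tool, served as an alternative. Ratios used a pseudocount of 1 read. Intervals are exact Clopper-Pearson intervals at 95%. The fits were tested on simulated data. The members and all lists, markers and alternatives were chosen with earlier results of these data known. Named are the 4 members, names sharing their reads or hairpins, bta-miR-615, the mir-10 superfamily, and the 3 bovine names of at least 100 mean CPM with the highest Pearson's r to bta-miR-10a and to bta-miR-10b in each sample type. In leucocytes the title letters A, C and E mark the animals and were taken as cows 1, 3 and 4. In plasma they follow the title order and the numbering of a supplementary table, where 504 of 504 values equal the read counts. Deviations from the group means correlated within cows at 0.519 to 0.713 in leucocytes and at -0.28 to 0.239 in plasma, so plasma pairing rests on that numbering. No pair of libraries held identical counts. The cows are the replicates.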

Additional observations from a re-analysis of the deposited data

Results flagged for a closer look

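3 plasma values on HG stood apart from the other cows of their group by Dixon's criterion, out of 12 groups of 4 libraries examined, where chance gives about 1 in 20. The first is bta-miR-10b in cow 4, at 5858 CPM against 3159 to 3593 in the other cows. The second is bta-miR-196a in cow 2, at 19.3 CPM against 0.388 to 2.99, from the 59 reads of 2 sequences described above. The third is the log2 ratio of bta-miR-10a to bta-miR-10b in cow 1, at 0.20 against -0.71 to -0.58. That library was the deepest plasma library, and the same cow's FD library was the shallowest. The part of depth in these values was not tested.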

How the results depend on the processing

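The lower levels of bta-miR-10b in leucocytes kept their call under every alternative run, and 278 of 326 alternative values kept their direction and their side of the threshold (for counts, stayed within 1.5 times). In the joint fit, leaving out cow 2 and keeping only cows with both sample types are the same fit, which this total counts under both names. A value that stayed past or short of the threshold counts alike. In the leucocyte diet comparison DESeq2 gave no adjusted p for bta-miR-196a and bta-miR-196b, which were counted by direction alone. Depth limits the miR-196 pair in plasma and bta-miR-196a in leucocytes, and the cause of the changes below was not tested except where fewer names or cows were tested.

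In leucocytes the 15 names called between diets became 32 in DESeq2, 9 with DESeq2 size factors, 24 with at least 10 reads in every library and 5 when names sharing all counts entered once. Without the replicate block for cow 0 were called (45 at an unadjusted p under 0.05 in edgeR). Leaving out a cow gave 0 (without cow 3, 24 at an unadjusted p under 0.05 in edgeR) to 102 (without cow 4, 50 of them higher), and 8 without cow 1. For bta-miR-10a the log2 fold change was -0.52 in DESeq2 and -0.55 with at least 10 reads in every library, both past the threshold, and -0.56 without the replicate block (adjusted p = 0.732 in edgeR). Its adjusted p was 0.0213 to 0.992 over the alternatives. Leaving out a cow moved bta-miR-10b from -0.35 to 0.19 and bta-miR-196a from -1.04 to 0.36.

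In plasma DESeq2 called 12 names between diets, and no other alternative called any. For bta-miR-10a the log2 fold change became 0.15 with library size alone and 0.0044 with at least 10 reads in every library, and for bta-miR-10b it became 0.053 with library size alone. Leaving out a cow gave -1.08 to 0.27 for bta-miR-10a and -1.03 to 0.11 for bta-miR-10b. Neither miR-196 name was tested with at least 10 reads in every library.

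For leucocytes against plasma, at least 10 reads in every library (257 names tested) left 163 calls on FD and 173 on HG. Leaving out a cow gave 86 (cow 3) to 258 on FD and 122 (cow 3) to 275 on HG, with 165 without cow 1. bta-miR-10a ranged from -2.70 to -2.28 on FD and from -2.97 to -1.97 on HG. bta-miR-196a ranged from -1.64 to 0.42 on FD and from -3.48 to -2.56 on HG. On HG it lost its call at -3.01 in DESeq2, -3.03 with undivided reads and -2.74 with cows of both sample types. bta-miR-196b passed on FD at 2.38 in DESeq2, and on HG leaving out a cow gave -1.59 to 0.41.

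For the difference of the diet effects DESeq2 called 30 names. bta-miR-10a became 0.057 without the replicate block and ranged from -0.48 to 0.31 when a cow was left out, and bta-miR-10b became -0.25 with library size alone. The log2 ratio of bta-miR-10a to bta-miR-10b between diets in plasma ranged from -0.052 to 0.21 when a cow was left out, and that of bta-miR-196a to bta-miR-196b in leucocytes from -0.50 to 0.60.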
